A study of Caenorhabditis elegans with 16 samples.

Results

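The col genes of Caenorhabditis elegans are the numbered members of its cuticle collagen genes. Rows of the deposited table were taken when the symbol was col, a hyphen and a number and when 10 or more counts were summed over the 16 samples. This gave 114 genes of the 159 col rows in a table of 46904 rows. Of the 45 col rows left out, 18 had no count. The tests covered 88 of the 114, those that passed a filter on low counts, and 26 members stayed untested at a mean under 2 CPM (read counts scaled to library size).

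Cuticle collagens are short, secreted proteins that the epidermis makes in bursts around each molt. They are trimmed, cross-linked and assembled in layers into the cuticle, the worm's outer skeleton. Different collagen genes are used at different molts and in the adult, and col-19 is a widely used marker of the adult epidermis. Loss of single cuticle collagens such as those named dpy, sqt, rol and bli alters body shape or the surface.

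Whole synchronised worms were grown for 3 days at 20 °C on agar plates with E. coli OP50, without added copper or with 100 µM copper. The genotypes were control, whose strain the labels do not name, and cua-1(H828Q), a missense allele of the worm's copper-transporting ATPase, called the mutant here. The 4 groups were control without copper, control on copper, mutant without copper and mutant on copper, with 4 samples each that the labels call biological replicates. The labels give neither the age in hours nor the number of worms per sample. Total counts ran from 1891008 to 4001750 per sample, and 3 counts, taken as the floor, were worth 0.661 to 1.69 CPM. In whole worms, fewer cells of a type and less RNA per cell cannot be told apart.

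In 5 samples, genes with transcripts over 3000 bp were scarce against genes with transcripts under 800 bp. The difference in their median log2 CPM was below -0.5 in control replicates 1, 3 and 4 without copper, control replicate 1 on copper and mutant replicate 4 on copper. The members' own transcripts were 846 to 1994 bp long, with a median of 1008.5 bp. The part of this imbalance in the results was not tested. Medians over all tested members and some single results are given with and without these samples. Medians by level class are given only with them. Most named genes and all gene lists are given only with them. Of the untreated controls, only replicate 2 lies outside the 5, so every comparison with that group rests on them.

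Together the 114 members took between 2.87% and 7.41% of all counts. Their summed level in the control without copper was 86249, 23115, 54287 and 58844 CPM in replicates 1 to 4. In the control on copper it was 61814, 34978, 31400.4 and 32974 CPM. In the mutant it was 50322, 51981, 45888 and 53207 CPM without copper, and 51992, 57354, 52928 and 98814 CPM on copper. The sum varied most among the untreated controls, and its groups overlapped except that 3 of the 4 controls on copper lay below every mutant sample.

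A few genes made up most of that sum. The 10 most abundant members held 65.1% of the summed mean CPM, and the 26 members with a mean of 200 CPM or more held 96.4%. Per kb of transcript, col-178 was highest at 6672 CPM per kb, followed by col-140 at 5086, col-20 at 3874, col-160 at 3327, col-19 at 2925, col-124 at 2909.9, col-122 at 2828 and col-181 at 2387 CPM per kb. Counts of 3′ digital mRNA sequencing need not rise with transcript length, so this order is not one of abundance. By mean CPM, col-124 (3250.3 CPM) lay above col-19 (2726 CPM). The fixed set of members with known roles or copies also included col-7, col-2 and col-40, known from adult or dauer cuticles, and the transmembrane collagen col-99. These 4 had 8, 8, 4 and 1 counts in all 16 samples and fell short of the minimum of 10.

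**Figure D1:**
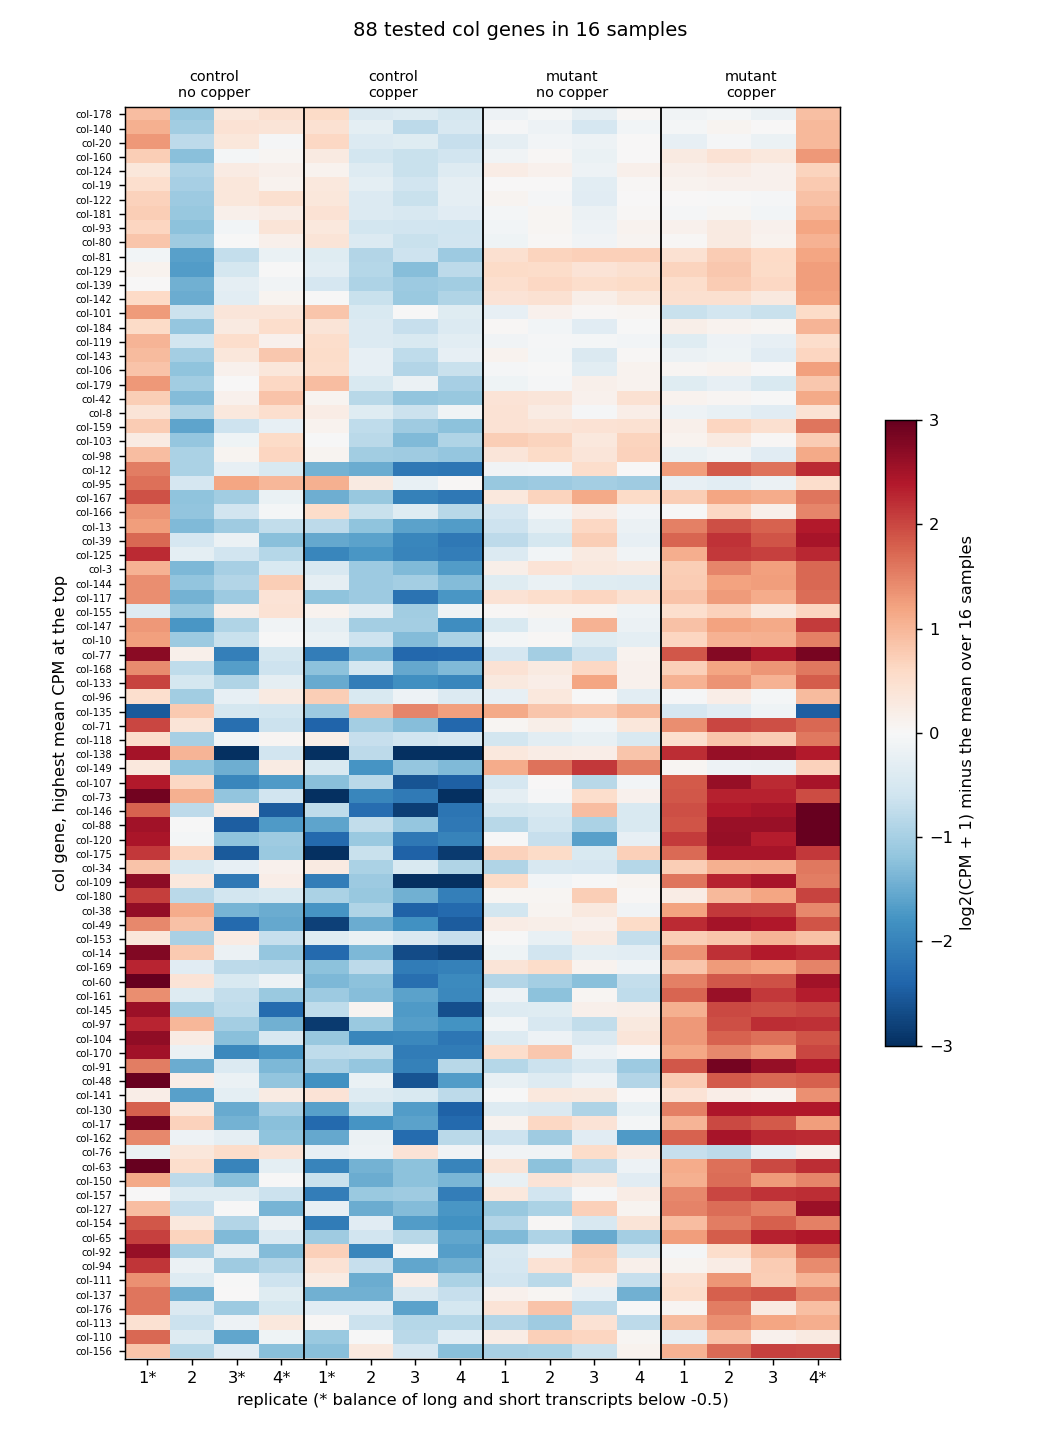
Level of the 88 tested col genes (rows, highest mean CPM at the top) in the 16 samples (columns, by group and replicate), as log2(CPM + 1) minus the gene's mean over the samples, from blue (low) to red (high). Most rows below the top of the map are red in all 4 mutant samples on copper and blue in the controls on copper, and replicate 1 of the untreated control is red in most rows.

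The marker of the adult epidermis, col-19, had 3744, 1313, 3324 and 2799 CPM in the control without copper and 3238, 2125, 1747 and 2175 CPM in the control on copper. In the mutant it had 2663, 2628, 2113 and 2675 CPM without copper and 2831, 2867, 2846 and 4528 CPM on copper. The groups overlapped in every comparison but 1, since all 4 mutant samples on copper lay above all untreated mutants, a change that was not called (0.38 ± 0.29, log2, adjusted p = 0.599, edgeR). The difference between mutant and control on copper was 0.49 ± 0.29 (log2, standard error of the model, adjusted p = 0.457, edgeR), so col-19 was not called. Without the 5 samples it was 0.45, with adjusted p = 0.00251.

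The most abundant member, col-178, had 11437, 2729.8, 7636 and 8438 CPM in the control without copper and 8992, 4485, 4591 and 4189 CPM in the control on copper. In the mutant it had 5430.4, 5761, 4959 and 6179 CPM without copper and 5609, 5769, 5369 and 11336 CPM on copper. The high values fell in samples of the 5 named above, in both genotypes. None of the 5 comparisons called it, and on copper the genotype difference was 0.34 ± 0.37 (adjusted p = 0.721). Called in no comparison were 31 of the 88 tested genes, among them col-178, col-140, col-20, col-160, col-19, col-124, col-122 and col-181.

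On copper the mutant had more RNA of most members than the control. Of the 88 tested genes, 55 were higher in the mutant and 0 were lower at an adjusted p under 0.05 (edgeR, adjusted over 9787 genes). Among all genes tested, 6.39% were called higher and 0.542% lower. At an unadjusted p under 0.05, 66 members were higher and 1 was lower (share of all genes not counted). DESeq2 called 55 higher and 0 lower of the 86 members it could adjust. Of all genes, DESeq2 called 9.19%. The median difference over the tested members was 2.40 on the log2 scale, against -0.04 over all genes tested, and 84 of the 88 lay above 0. This median was 1.97 with the balance of long and short transcripts as a covariate and 2.57 without the 5 samples.

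The difference was greatest in genes of lower level. Of the 26 tested members with a mean of 200 CPM or more, 6 were called higher and the median log2 difference was 0.644, while 2.52% of all genes of that level were called higher. Of the 27 members between 20 and 200 CPM, 21 were called higher with a median of 2.88, against 4.71% of all genes of that level. Of the 35 members between 2 and 20 CPM, 28 were called higher with a median of 3.72, against 8.25% of all genes of that level. A level class is set by the mean over all samples, so it is not independent of the groups. The filter on low counts is not independent of them either, since a member can pass it through 1 group alone. For example, col-156 had 16, 28, 36 and 24 counts in the mutant on copper and at most 7 in any other sample.

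Summed over the 35 members of 2 to 20 CPM, the level was 929, 206, 124 and 126 CPM in the control without copper and 103, 102, 69 and 51.1 CPM in the control on copper. In the mutant the sum was 181, 185, 210.3 and 176 CPM without copper and 481, 753, 743 and 796 CPM on copper. All 4 mutant samples on copper lay above all controls on copper and all untreated mutants, and untreated control replicate 1 lay above them all.

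**Figure D2:**
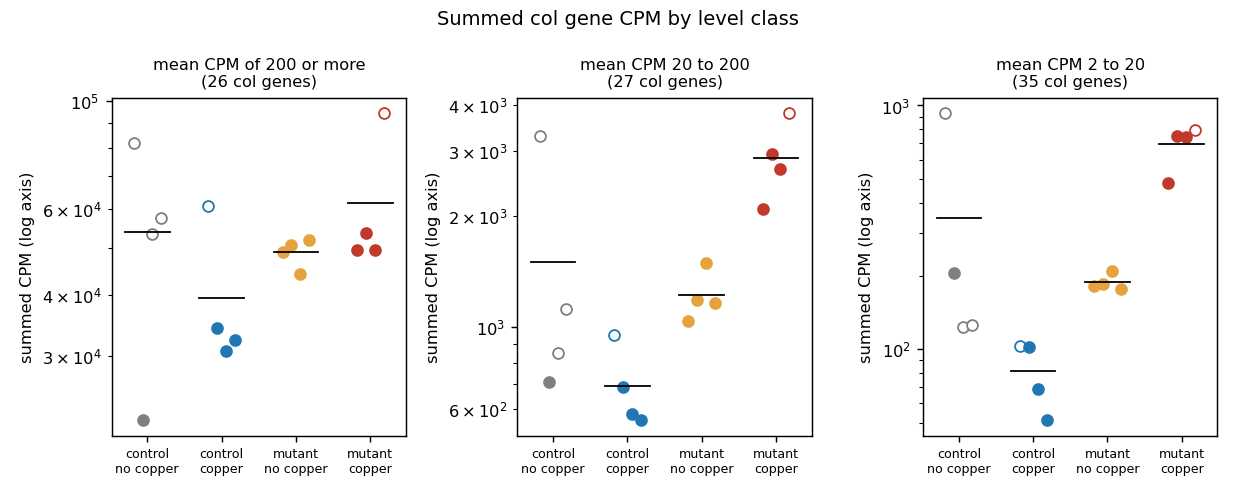
Summed CPM (log axis) of the col genes of 3 level classes in each of the 4 groups; points are samples, lines are group means and open points are the 5 samples in which long transcripts were scarce. In the 2 lower classes the mutant samples on copper lie above all controls on copper, while in the top class the groups overlap.

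Among the col genes with the smallest adjusted p on copper was col-12. It is a known tandem duplicate of col-13 with a near-identical coding sequence, so reads may be split between both. Its level was 444, 78.8, 129.6 and 112 CPM in the control without copper and 56.6, 54.3, 34.1 and 33.5 CPM in the control on copper. In the mutant it was 142, 146, 221 and 156 CPM without copper and 369, 555, 478 and 729 CPM on copper. All mutant samples on copper exceeded all controls on copper, a log2 difference of 3.58 ± 0.46 (adjusted p = 0.000226, edgeR).

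The neighbouring col-13 lay at 42, 31.4, 23.3 and 22.3 CPM in the control on copper and at 209.8, 283, 251 and 387 CPM in the mutant on copper. It was 3.25 ± 0.51 higher in the mutant (log2, adjusted p = 0.00102). Its level in the untreated control was 176, 28.7, 34.4 and 43.8 CPM, with replicate 1 far above the others. It is one of several cuticle collagens, with col-10 and col-120, that have been studied for a link to lifespan.

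The collagen gene col-157 had 0, 0.952, 1.01 and 0 CPM in the control on copper, near the floor, and 10.3, 15.8, 17.7 and 18.3 CPM in the mutant on copper. Its difference was 5.07 ± 0.59 (log2, adjusted p = 0.00012). The groups did not overlap. A further member, col-161, rose by 4.25 ± 0.57 (adjusted p = 0.000308), from 2.85, 2.38, 1.69 and 1.14 CPM in the control to 26.3, 48.5, 34.6 and 40.9 CPM in the mutant.

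The gene col-39 had 15.7, 14.8, 11.5 and 10 CPM in the control on copper and 160.5, 217, 177 and 269 CPM in the mutant on copper. The groups did not overlap, and the difference was 3.99 ± 0.56 (log2, adjusted p = 0.000406). On its opposite strand lies dph-2, and the strand setting of the counting is not given in the sources used here, so reads of both cannot be told apart. Also called were col-49, at 5.20 ± 0.74 (adjusted p = 0.000467), and col-125, at 4.00 ± 0.59 (adjusted p = 0.000686). For col-17 and col-63, which had 3 counts over the controls on copper, the ratio of mutant to control was 58.8 (95% counting interval 19.8 to 287) and 50.4 (17 to 247). These intervals cover counting error only.

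**Figure D3:**
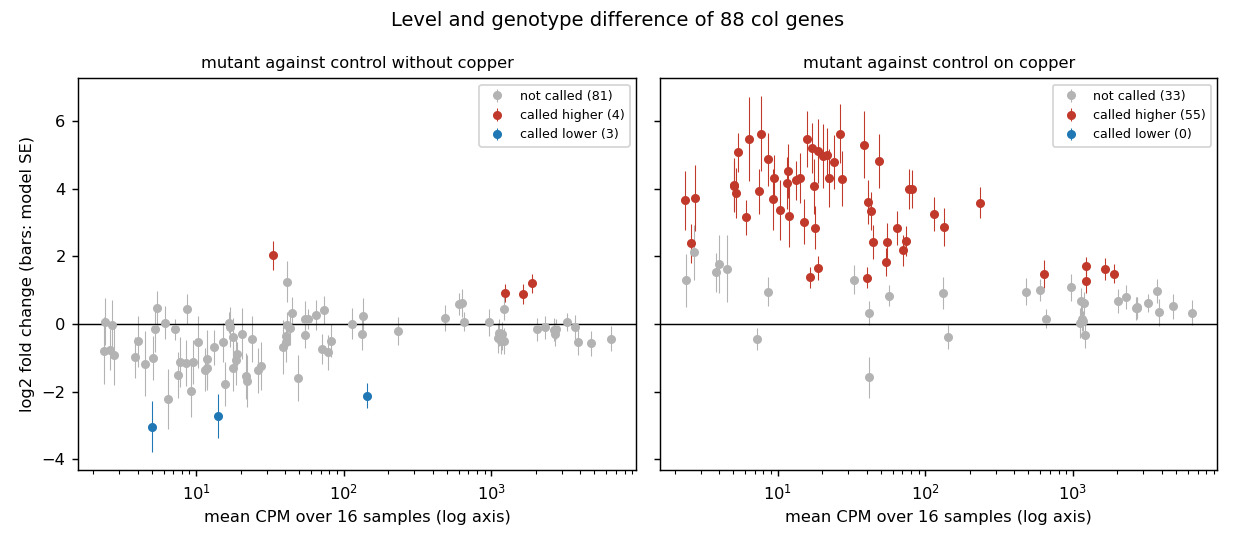
Log2 fold change of the mutant against the control (points, bars are the model's standard error) against mean CPM over the 16 samples (log axis) for the 88 tested col genes, without copper (left) and on copper (right). On copper 55 genes are called higher and 0 lower, with larger fold changes at low than at high mean CPM.

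Without copper the genotypes differed in few members. Of the 88, 4 were called higher in the mutant and 3 lower, against 9.39% of all genes called higher and 12.5% called lower. The median log2 difference of the tested members was -0.41, against 0.0022 over all genes tested. Its sign turned to 0.284 without untreated control replicate 1, 0.486 with the balance of long and short transcripts as a covariate and 0.825 without the 5 samples. With that covariate 22 members were higher and 2 lower, where 8.86% of all genes were called. The fit without the 5 samples called members in both directions. It leaves the untreated control with 1 sample, whose spread is taken from the other groups.

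The 4 higher genes were col-81, col-129, col-139 and col-149. The level of col-81 was 1550.1, 535, 997 and 1432 CPM in the control without copper and 2315, 2609.9, 2714 and 2716 CPM in the mutant. On copper it was 1290.5, 897, 1064 and 779 CPM in the control and 2269, 2781, 2513 and 3751 CPM in the mutant. All mutant samples exceeded all controls at both copper levels, with log2 differences of 1.20 ± 0.29 without copper (adjusted p = 0.0138) and 1.49 ± 0.29 on copper (adjusted p = 0.00425).

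The genes col-129 and col-139 were likewise called higher in the mutant without copper, at 0.88 ± 0.31 (adjusted p = 0.0499) and 0.91 ± 0.27 (adjusted p = 0.0294). On copper their differences were 1.63 ± 0.32 (adjusted p = 0.0042) and 1.70 ± 0.28 (adjusted p = 0.00135). The call of col-129 without copper was lost in 13 of the 24 alternatives and that of col-139 in 5, with adjusted p up to 0.111 and 0.0664. For col-81, col-129 and col-139 the copper response was called in neither genotype.

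The level of col-149 was 29.8, 9.66, 7.94 and 28.1 CPM in the control without copper and 52, 74.8, 107 and 70.8 CPM in the mutant. On copper it was 17.1, 6.19, 10.1 and 8.89 CPM in the control and 24.5, 21.3, 20.8 and 39.1 CPM in the mutant. The untreated mutant lay above the other 3 groups, and the log2 difference without copper was 2.03 ± 0.42 (adjusted p = 0.00663).

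The 3 lower genes were col-95, col-60 and col-65. The level of col-95 was 378, 83.2, 272 and 239 CPM in the control without copper and 53.6, 55.4, 58.5 and 56.1 CPM in the mutant, with no overlap. Its log2 difference was -2.12 ± 0.38 (adjusted p = 0.0027). Against untreated control replicate 2 alone, the 1 such sample left without the 5, the value was -0.63. For col-60 the difference was -2.72 ± 0.65 (adjusted p = 0.0138) and for col-65 -3.04 ± 0.76 (adjusted p = 0.016). Both of the latter calls were lost without untreated control replicate 1, at adjusted p up to 0.168 and 0.0787 over all alternatives.

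Copper lowered some members in the control. Of the 88, 16 were called lower and 0 higher, against 1.32% of all genes called lower and 0.46% called higher. At an unadjusted p under 0.05, 44 were lower and 0 higher (share of all genes not counted), and DESeq2 called 31 lower and 0 higher. Of all genes, DESeq2 called 4.5%. The median log2 change of the tested members was -1.27, against -0.05 over all genes tested. It was -0.426 without untreated control replicate 1, -0.529 with the balance of long and short transcripts as a covariate and -0.303 without the 5 samples. That last fit leaves 1 untreated control and called members in both directions. No member was called in a fit to the control samples alone or with the covariate. The count was 4 without untreated control replicate 1, 1 without copper-treated control replicate 3 and 0 without copper-treated control replicate 4. In the same order, these fits called 0.165%, 1.04%, 0.589%, 0.52% and 0.439% of all genes.

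The gene with the smallest adjusted p was col-73, with 97.3, 26.8, 4.85 and 7.86 CPM in the control without copper and 0, 2.38, 2.03 and 0.456 CPM on copper. The groups did not overlap, and the log2 change was -4.90 ± 0.87 (adjusted p = 0.00824). This call was lost in 3 of the 24 alternatives, with adjusted p up to 0.196. Named by the same rule were col-14 at -4.64 ± 0.84 (adjusted p = 0.00924), col-60 at -3.75 ± 0.74 (adjusted p = 0.0148), col-125 at -2.80 ± 0.57 (adjusted p = 0.0186), col-12 at -2.10 ± 0.44 (adjusted p = 0.0207) and col-133 at -2.60 ± 0.56 (adjusted p = 0.0236). The call of col-14 was lost in 3 of 23 alternatives. Those of col-60, col-125, col-12 and col-133 were lost in 4, 6, 8 and 7 of the 24.

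In the mutant copper went with higher levels. Of the 88, 18 were called higher and 0 lower, against 1.78% of all genes called higher and 0.46% called lower. At an unadjusted p under 0.05, 44 were higher and 2 lower (share of all genes not counted), and DESeq2 called 27 higher and 1 lower. Of all genes, DESeq2 called 4.42%. The median log2 change of the tested members was 1.12, against 0.02 over all genes tested. The median was 0.502 with the balance of long and short transcripts as a covariate and 1.06 without the 5 samples. With that covariate 19 were higher and 5 lower, where 4.06% of all genes were called. A fit to the mutant samples alone called 45 higher and 1 lower, where 4.95% of all genes were called. Fewer were called with the replicate number as a block (12). On leaving out an untreated mutant the count was 8, 7, 11 or 8 (replicates 1 to 4 in turn), and it was 8 without mutant replicate 2 on copper. It was 36 without untreated control replicate 1, where 3.28% of all genes were called.

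The gene col-65 had 0.441, 0.904, 0.26 and 0.772 CPM in the mutant without copper, near the floor, and 7.61, 11.7, 16.9 and 17.9 CPM on copper. The groups did not overlap, and the log2 change was 4.41 ± 0.72 (adjusted p = 0.00208). Next by adjusted p were col-91 at 3.71 ± 0.61 (adjusted p = 0.00227), col-161 at 2.88 ± 0.50 (adjusted p = 0.00337), col-162 at 3.62 ± 0.63 (adjusted p = 0.00374), col-34 at 1.92 ± 0.35 (adjusted p = 0.00471) and col-157 at 2.24 ± 0.43 (adjusted p = 0.0084).

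**Figure D4:**
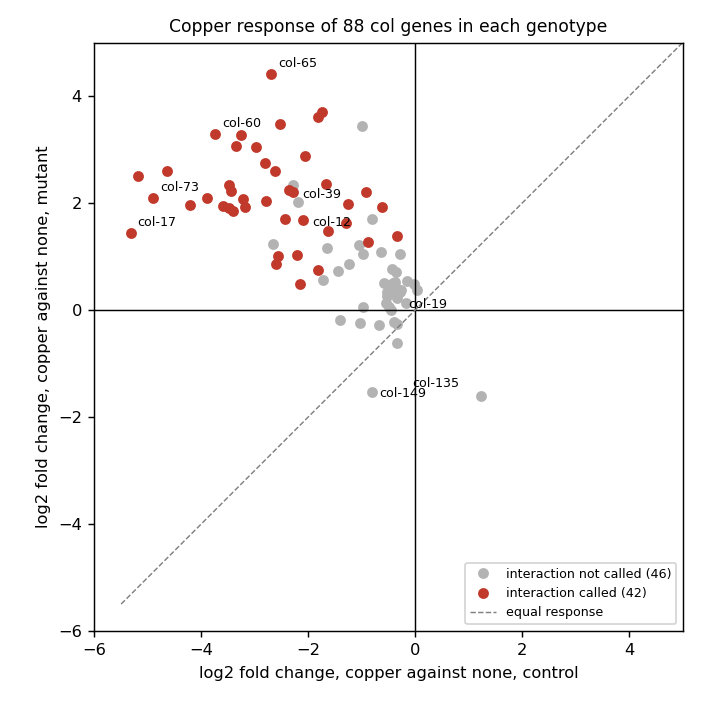
Log2 fold change on copper against none in the mutant (y axis) against that in the control (x axis) for the 88 tested col genes; the dashed line marks an equal response. Of the 88 points, 42 are called for the interaction and lie above the line, most of them with values below 0 in the control and above 0 in the mutant.

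The interaction, meaning the mutant's log2 change on copper less the control's, was called for 42 of the 88 members, all with a higher value in the mutant. No member was called with a lower value, and among all genes tested 4.11% were called higher and 1.28% lower. At an unadjusted p under 0.05, 53 were higher and 1 lower (share of all genes not counted), and DESeq2 called 50 higher and 1 lower. Of all genes, DESeq2 called 10.5%. The median over the tested members was 2.56 on the log2 scale, against 0.08 over all genes tested. It was 1.58 without untreated control replicate 1, 1.12 with the balance of long and short transcripts as a covariate and 1.61 without the 5 samples. With that covariate 15 were higher and 3 lower, where 2.5% of all genes were called. The fit without the 5 samples leaves 1 untreated control and called members in both directions.

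One gene, col-60, was called in all 5 comparisons. It had 62.4, 9.66, 4.85 and 6.18 CPM in the control without copper and 2.14, 2.38, 0.676 and 1.14 CPM in the control on copper. In the mutant it had 3.31, 2.94, 2.34 and 3.86 CPM without copper and 21.8, 28.2, 29.2 and 44.9 CPM on copper. Its interaction was 7.04 ± 0.98 (adjusted p = 0.000945), the smallest adjusted p among the members. Others by the same rule were col-14 at 7.24 ± 1.06 (adjusted p = 0.00135), col-65 at 7.11 ± 1.06 (adjusted p = 0.00139), col-161 at 4.94 ± 0.77 (adjusted p = 0.00191), col-73 at 6.99 ± 1.11 (adjusted p = 0.00202) and col-12 at 3.78 ± 0.61 (adjusted p = 0.00202).

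**Figure D5:**
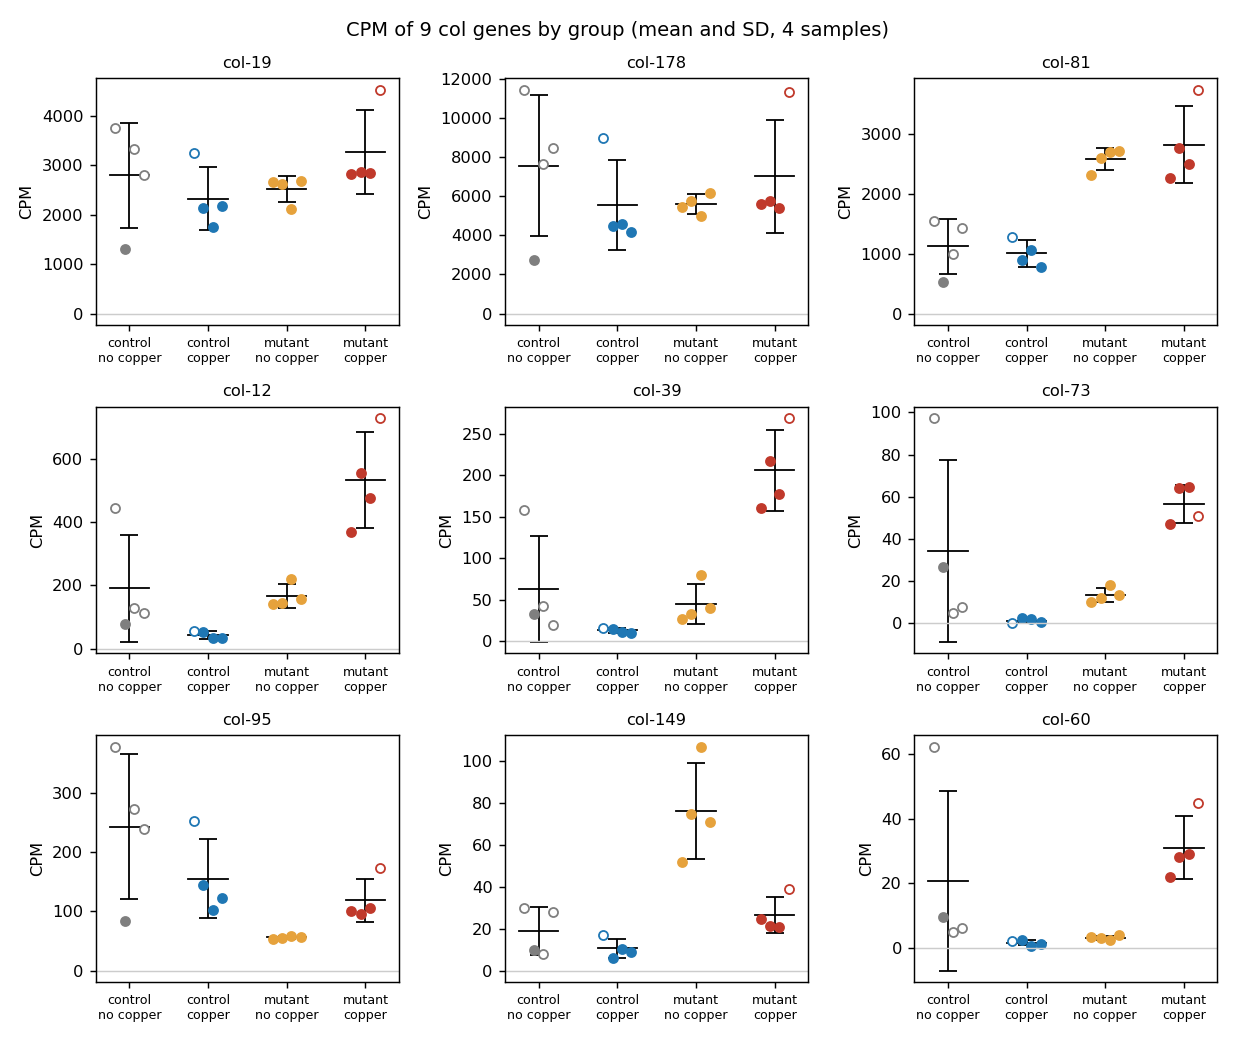
CPM of 9 col genes in each group of 4 samples; points are samples, bars the mean and SD, and open points the 5 samples in which long transcripts were scarce. Panels of col-12, col-39, col-73 and col-60 have high mutant samples on copper and low controls on copper, col-81 is higher in the mutant at both copper levels, and the mutant and control samples of col-19 and col-178 overlap at both copper levels.

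Over the 4 groups, the mutant on copper had the highest mean for 73 of the 88 tested members, and the control on copper for 0. The share over all genes was not counted, and a member can pass the filter on low counts through the group where it is high. Spread within groups was uneven. The median coefficient of variation over the tested members was 90.6% in the control without copper, 46% in the control on copper, 21.1% in the mutant without copper and 30.6% in the mutant on copper. Replicate 1 was the highest of the untreated controls for 81 of the 88 genes, and replicate 4 the highest of the copper-treated mutants for 61.

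Members of a like level moved together across samples. Over the 16 samples the median pairwise Pearson r of log2 CPM was 0.806 among the 26 most abundant members, 0.794 among the 27 of the middle class and 0.775 among the 35 of the low class. The genes most like col-19 were col-184 (r = 0.972), col-122 (0.969) and col-181 (0.961), and those most like the summed family were col-80 (0.991), col-93 (0.983) and col-106 (0.977). All of these values share libraries and depth, and the r of the 26 most abundant members with the balance of long and short transcripts ran from -0.911 for col-20 to -0.197 for col-81. It was -0.759 for col-19, -0.863 for col-178, -0.304 for col-129 and -0.295 for col-139. Negative r with the summed family was found for col-135 (-0.822) and col-76 (-0.227), and their r with the balance was 0.958 and -0.0427. Of these named members, col-20, col-76 and col-135 were singled out here after their values were seen.

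Many members lie next to each other (WBcel235, the assembly of ce11). There were 22 pairs within 10000 bp, holding 37 members, 17 of the pairs on the same strand. On chromosome II, col-17 (4866436 to 4867576), col-20 (4869670 to 4870791) and col-73 (4872098 to 4873129) follow each other on the minus strand. The outer genes col-17 and col-73 were called higher in the mutant on copper, whereas col-20 between them, at a mean of 3851 CPM, was not (0.34 ± 0.39, adjusted p = 0.729). The difference between these neighbours was not tested.

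The pair col-39 (10704916 to 10706019) and col-80 (10707201 to 10708287) on chromosome II was of the same kind. The gene col-39 was called on copper and the abundant col-80 was not (0.68 ± 0.34, adjusted p = 0.353). On chromosome X, col-167, col-168, col-169 and col-170 form a row from 6323488 to 6332611 on the plus strand. All 4 were called higher in the mutant on copper, at 2.88, 2.42, 3.03 and 3.38 on the log2 scale, and the r of adjacent pairs was 0.93 to 0.96. On chromosome V, col-13 and col-12 (10420788 to 10425198) had r = 0.96, and col-159 and col-160 overlap by 1196 bp on the same strand, so their counts are uncertain.

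Other genes of the cuticle were counted from lists chosen with earlier results known. The shares of all genes given above, 6.39% higher and 0.542% lower on copper and 9.39% higher and 12.5% lower without copper, apply to each list. Of 11 tested cuticle collagens with other names, 7 were higher in the mutant on copper, 6 were lower with copper in the control (1.32% of all genes) and 7 had a higher interaction (4.11%). They included sqt-3, 3.56 ± 0.53 higher on copper (adjusted p = 0.000713), and dpy-13, 5.63 ± 0.85 higher (adjusted p = 0.000757), both needed for normal body shape. Without copper, dpy-17 was lower by -3.37 ± 0.60 (adjusted p = 0.0027) and sqt-3 by -1.85 ± 0.45 (adjusted p = 0.0139). Of 6 tested genes that cleave or cross-link collagens, only dpy-5, a procollagen protease, was called, 4.77 ± 0.91 higher in the mutant on copper (adjusted p = 0.00379).

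Too few genes that modify or export collagens were tested to set their counts apart from the share of all genes. Of 5 tested genes of prolyl hydroxylation and disulfide formation, phy-2, a prolyl hydroxylase subunit, was called once, 2.06 ± 0.52 higher in the mutant without copper (adjusted p = 0.0165). It had 0, 1.25, 1.32 and 2.25 CPM in the untreated control, near the floor. Of 5 tested secretion genes and 3 tested epidermal transcription factors, edgeR called 0 in any comparison. On copper, 0 secretion genes passed an unadjusted p under 0.05 and DESeq2 called 0. The transcription factor nhr-23 passed that threshold and was called by DESeq2, lower in the mutant. Its log2 difference was -0.72 ± 0.25 (adjusted p = 0.111, edgeR).

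Of 3 tested cuticlins and matrix genes, cut-2 was 3.34 ± 0.63 higher in the mutant on copper (adjusted p = 0.00346) and cut-4 was 1.38 ± 0.41 higher (adjusted p = 0.0482). The third, dpy-6, had 0 CPM in all 4 untreated controls and 4.85, 3.16, 2.86 and 5.66 CPM in the untreated mutant. It was called higher in the mutant without copper (adjusted p = 0.00466), was not called on copper and had a lower interaction (adjusted p = 0.0175). Of 8 tested molting genes, mlt-8, mlt-9 and qua-1 were higher in the mutant on copper, by 2.85 ± 0.65, 3.66 ± 0.83 and 3.55 ± 1.01 (adjusted p = 0.0108, 0.0111 and 0.0418). In the control on copper, mlt-9 had 0, 0, 0 and 0.684 CPM and qua-1 had 0, 1.43, 0 and 0.456 CPM, near the floor. Without copper, lrp-1 was 3.30 ± 0.78 higher in the mutant (adjusted p = 0.013) and nas-37 was 1.36 ± 0.44 higher (adjusted p = 0.0383). The level of lrp-1 in the untreated control was 0, 1.25, 0 and 0.562 CPM, also near the floor. The interaction was lower for lrp-1, at -4.27 ± 1.03 (adjusted p = 0.0201), and higher for mlt-8, at 3.74 ± 0.86 (adjusted p = 0.0149).

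Genes of other tissues moved in the same comparison. All 6 vitellogenins, yolk proteins of the adult intestine, were lower in the mutant on copper, against 0.542% of all genes, with a median log2 difference of -2.33. Their summed level was 7379, 7837, 7734 and 1801 CPM in the mutant on copper and 20972 to 22841 CPM in the control on copper. Of 48 tested sperm genes, 35 were higher in the mutant on copper, against 6.39% of all genes, with a median of 1.46. Their summed level was 2553 to 5825 CPM in the mutant and 1099.8 to 1626 CPM in the control. The 1801 CPM of vitellogenins and the 5825 CPM of sperm genes were both in mutant replicate 4. The 1626 CPM were in control replicate 1. Both are among the 5 samples in which long transcripts were scarce, and the part of this in these lists was not tested. Without copper, 10 of the 48 were also higher, against 9.39% of all genes, and 0 were called for the interaction. Without copper the sum was 3241 to 3468 CPM in the mutant and 935 to 2741 CPM in the control. Of 13 tested oocyte and eggshell genes, 6 were lower in the mutant without copper, against 12.5% of all genes. The 6 had means of 266 to 2637 CPM in the untreated control. Of all genes with a mean of 200 CPM or more, 35.1% were called lower there. On copper 0 of the 13 were called, where 1 was lower at an unadjusted p under 0.05 and DESeq2 called 1 lower. The part of worm age or germ-line content in the col gene differences was not tested.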

How the data were processed

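RNA of 16 whole-worm samples was measured by 3′ digital mRNA sequencing. The authors deposited raw read counts per gene, without normalization. Per the submitters' processing notes, the tools were STAR 2.6.0a, bcl2fastq and HTSeq, and the genome build was ce11. The annotation release and strand setting are not given in the sources used here, so counts of overlapping genes and near-identical copies are uncertain (40 members overlap a protein-coding gene).

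Counts were filtered with filterByExpr and normalized by TMM in edgeR 4.0.16 under R 4.3.3, with 1 mean per group over 16 samples, the robust quasi-likelihood test and Benjamini-Hochberg adjustment over 9787 genes, called at 0.05. CPM use TMM library sizes. DESeq2 1.42.0 was an alternative. P-values measure the spread between the samples.

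Members and gene lists were chosen with earlier results of these data known. Named genes are, per comparison, the 6 called members with the smallest adjusted p (all where 5 or fewer were called in a direction), the 8 members highest per kb, fixed genes, up to 3 called members per list, and the 3 members most like col-19 and the summed family. Genes of the closing section follow the same rule. The procedure was tested on simulated data. No proteins or promoters are printed. Alternatives were other size factors, no filter and a stricter filter (CPM of 5 in 4 samples), DESeq2, a fit to the samples of each comparison, the replicate number as a block, the balance of long and short transcripts as a covariate, the fit without the 5 samples and leaving out each sample.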

Additional observations from a re-analysis of the deposited data

Results flagged for a closer look

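In 140 checks of a group of 4 samples for 1 sample far from the others (Dixon's test at 95%), 30 had one. Chance gives about 1 in 20, and the checks share samples, so they are not independent.

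Replicate 1 of the control without copper stood above its group, at col-12 (444 CPM), col-13 (176 CPM), col-39 (158 CPM), col-60 (62.4 CPM), col-91 (14.7 CPM). The same sample stood apart at col-125 (219 CPM), col-133 (124 CPM), col-161 (20.7 CPM).

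Replicate 1 of the control on copper stood above its group, at col-20 (5437 CPM), col-93 (2696 CPM), col-160 (4146 CPM), col-178 (8992 CPM), col-181 (3426 CPM). The same sample stood apart at summed col genes (61814 CPM).

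Replicate 4 of the mutant on copper stood above the other 3 in these members, at col-19 (4528 CPM), col-20 (6961 CPM), col-93 (4877 CPM), col-95 (173 CPM), col-106 (2455 CPM). The same sample stood apart at col-122 (4743 CPM), col-124 (4979 CPM), col-140 (8591 CPM), col-160 (8389 CPM), col-178 (11336 CPM). The same sample stood apart at col-181 (5048 CPM), col-184 (2247 CPM), summed col genes (98814 CPM).

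Replicate 3 of the mutant without copper stood apart, at col-12 (221 CPM), col-19 (2113 CPM), col-133 (67.6 CPM). It lay above the rest for col-12 and col-133 and below them for col-19.

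The copper response differed between mutant and control by the interaction test for 17 named members. On the log2 scale, mutant minus control, the values were col-10 (2.15), col-12 (3.78), col-13 (3.24), col-14 (7.24), col-17 (6.76), col-34 (2.54). They were also positive for col-39 (4.48), col-49 (5.30), col-60 (7.04), col-65 (7.11), col-73 (6.99), col-91 (5.44). The remaining values were col-125 (4.84), col-133 (3.46), col-157 (4.60), col-161 (4.94), col-162 (5.43). The values of col-17 rest on 3 counts in the controls on copper.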

How the results depend on the processing

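The replicate numbers did not pair the samples: of 24 same-numbered pairs 6 had deviations correlated over 0.1, and 1 of 16 samples correlated best with its own number. With the replicate number as a block, the calls were 7 for mutant against control without copper, 54 on copper, 3 for copper in the control, 12 for copper in the mutant and 37 for the interaction. In the same order, 14.5%, 6%, 0.654%, 1.66% and 3.87% of all genes were called. For mutant against control without copper, where 4 members were higher and 3 lower, DESeq2 gave 10 calls with more lower (6) than higher (4). The covariate for long and short transcripts gave 24. Of all genes, DESeq2 called 31% and the fit with the covariate 8.86%, against 21.9% in the main fit. Leaving out 1 sample gave 5 to 14, with more lower than higher in 9 of the 16 fits. These fits called 7.23% to 37.7% of all genes. On copper, the fit without the 5 samples gave 85 calls, which included all 55, and leaving out 1 sample gave 45 to 59. Copper in the control went from 16 calls to 7 with no filter, 31 with DESeq2, 0 in the fit to its own samples, 0 with the covariate and 30 without the 5 samples, where 10 were higher; leaving out 1 sample gave 0 to 34. Copper in the mutant went from 18 to 28 with DESeq2, 46 in the fit to its own samples and 62 without the 5 samples, and leaving out 1 sample gave 7 to 36. The interaction went from 42 to 18 with the covariate, where 2.5% of all genes were called. Leaving out 1 sample gave 34 to 61, where 3.36% to 21% of all genes were called. The log2 difference on copper changed sign for col-20 (-0.18 with the covariate, and -0.033 to 0.65 on leaving out 1 sample, the lowest without mutant replicate 4 on copper), col-178 (-0.14 with the covariate) and col-181 (-0.0079 with the covariate), none of them called with all 16 samples and no covariate. The cause of these shifts was not tested. Members near 3 counts, such as col-157 and col-65, are limited by depth.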

Other observations

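By chromosome, the share of tested members called higher in the mutant on copper was 5 of 5 on I, 7 of 10 on II, 3 of 10 on III, 17 of 26 on IV, 17 of 24 on V and 6 of 13 on X. These shares were not tested against each other.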
